A study of Arabidopsis thaliana with 9 samples.

Results

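The regions described here are the FIE peaks on the chromosome arms of wild-type Arabidopsis thaliana that were matched by a FIE peak in the BPC and ZnF double knockdown. They were the 251 wild-type peaks, of 4904 on the arms and 6540 in the genome, that overlapped a knockdown peak by at least 1 bp and had their summit outside a gene-poor window around each centromere. These windows ran from 13 to 16.7 Mb on chromosome 1, 2.8 to 5 Mb on chromosome 2, 11.5 to 15.9 Mb on chromosome 3, 2.5 to 5.1 Mb on chromosome 4 and 10.2 to 14.2 Mb on chromosome 5 (TAIR10). The members were chosen by this overlap between the measured peak lists, so counts and values of overlap are descriptions and carry no test.

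The series held 9 chromatin libraries of strain Ws plants that were 30 hr old and kept on plates in long days. They were 3 anti-FIE replicates of plants with the transgenes pRNAi-BPC and pRNAi-ZnF, 3 anti-FIE replicates of wild-type plants without a transgene, and 3 input replicates of wild-type plants. The promoter that drives the RNA interference and the genes it targets are not given in the sources used here, and expression of those genes was not assayed. The deposited files gave 1 peak list for each anti-FIE group, without replicate values, so no difference below could be set against the spread between plants. Of the lists, one names the wild type, and the other was taken as the double knockdown because that was the remaining anti-FIE group.

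FIE is the WD-repeat subunit shared by the Polycomb repressive complexes 2 (PRC2) of Arabidopsis, which place the repressive mark H3K27me3 on genes of flower, embryo and meristem programmes. BPC proteins bind GA-rich sequences, and some C2H2 zinc finger proteins, as ZnF is read here, bind the telobox. Both motifs mark elements that bring PRC2 to its targets in this plant. A matched wild-type FIE peak is therefore one where FIE signal was called, over at least 1 bp, while both kinds of factor were targeted. Such peaks are called kept below, also where most of their length was not matched.

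Kept peaks were rare on the arms. They made up 5.12% of the wild-type arm peaks (251 of 4904, 95% Wilson interval 4.54 to 5.77), against 74.1% inside the gene-poor windows (1212 of 1636). The 251 peaks were matched by 249 knockdown peaks, which were 10.6% of the 2353 knockdown peaks on the arms. A match with 1 knockdown peak was found for 234 of them, and 17 were matched by 2 to 5. In the other direction, 19 knockdown peaks spanned more than 1 kept peak, up to 5, so the members were not independent sites. Joined where they lay within 10 kb of each other, they formed 162 loci, of which 133 held 1 peak.

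The 2 lists differed in depth, which bears on every count here. The background under a summit, recovered from the deposited fold and p-value, was 7.94 reads at its lowest in the knockdown list and 16.9 at its lowest in the wild-type list. At 874 pairs of summits within 30 bp, the median ratio of knockdown to wild-type background was 0.471. A site with unchanged FIE but a weak wild-type peak could thus stay below the knockdown threshold. At the lowest background, the smallest pileup called was 53 in the wild-type list (fold 3.02) and 35 in the knockdown list (fold 4.02). Weak members thus tend to show a higher fold in the knockdown through these call limits alone. Paired folds of weak members do not measure a change in FIE. Of the kept arm peaks, 88 (35.1%) would still have been called at the lower depth of the knockdown, against 894 (19.2%) of the 4653 wild-type-only arm peaks. Among all 982 arm peaks of this strength the kept share was 8.96% (7.33 to 10.9).

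The share of kept peaks was lower at greater distance from the gene-poor windows. Within 0.5 Mb of a window 48 of 177 wild-type arm peaks were kept (27.1%, 21.1 to 34.1), and between 0.5 and 1 Mb 20 of 157 were (12.7%, 8.40 to 18.9). At 2 to 4 Mb the share was 4.74%, and at 8 Mb or more it was 2.55% (46 of 1804, 1.92 to 3.38). The median distance from a window was 2.79 Mb for kept peaks and 6.49 Mb for wild-type-only arm peaks. By chromosome, the share was highest on chromosome 2 (73 of 817, 8.94%) and lowest on chromosome 3 (22 of 901, 2.44%), with 5.25% on chromosome 1, 3.90% on chromosome 4 and 5.11% on chromosome 5.

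The share also differed by strength and length of the wild-type peak. Fold enrichment is given for the summit, as the authors deposited it. Of 77 arm peaks with a wild-type fold of 10 or more, 18 were kept, with shares of 22.6% at folds of 10 to 15 (12 of 53) and 25% at 15 or more (6 of 24). Below a fold of 3 the share was 2.25% (21 of 932). The median wild-type fold was 3.47 for kept peaks (interquartile range 3.14 to 4.70) and 3.26 for wild-type-only arm peaks (3.03 to 3.76). The median length was 279 bp in both groups, and 15.9% of kept peaks against 9.18% of wild-type-only arm peaks were 1 kb or longer. A longer peak meets the rule of 1 bp of overlap more easily, and the part of this in the difference was not tested.

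**Figure D1:**
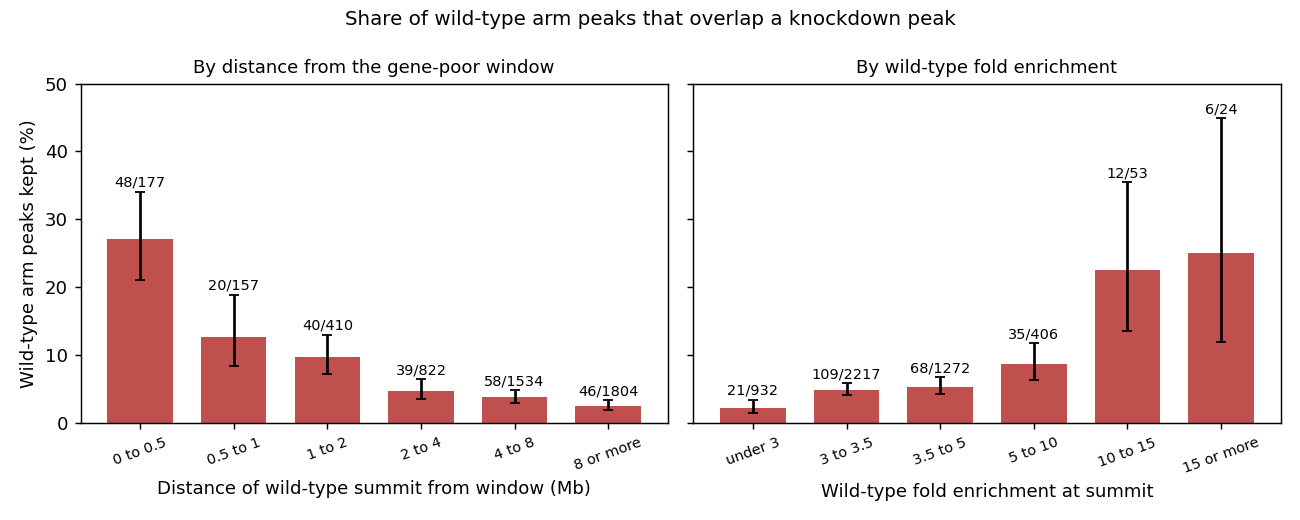
Percent of wild-type arm peaks that overlap a knockdown peak, by distance of the wild-type summit from the gene-poor window in Mb (left) and by wild-type fold enrichment at the summit (right). Bars are shares, lines are 95% Wilson intervals and labels give kept over all arm peaks; the share was 27.1% within 0.5 Mb of a window and 2.55% at 8 Mb or more.

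Kept peaks had a smaller share in protein-coding genes and a larger share in pseudogenes than the other arm peaks. Their summits were in protein-coding genes at 100 of 251 (39.8%, 34 to 46.0), against 2714 of 4653 wild-type-only arm peaks (58.3%, 56.9 to 59.7). They were in pseudogenes at 47 (18.7%, 14.4 to 24.0), against 117 wild-type-only arm peaks (2.51%, 2.1 to 3.01). A further 100 were between genes (39.8%), against 1676 (36.0%), and 4 were in other gene types, against 146. Read the other way, 28.7% of wild-type arm peaks in pseudogenes were kept (47 of 164), 5.63% of those between genes and 3.55% of those in protein-coding genes. Among arm peaks strong enough for the knockdown depth, 8.12% were kept in protein-coding genes (50 of 616, 6.21 to 10.5). Between genes 10.3% of such peaks were kept (33 of 321, 7.41 to 14.1), and these intervals overlap. The intervals are for the counting of peaks alone. The pseudogene class of the gene table used here also holds decayed transposable elements, which were not told apart.

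The share near the windows depended on location. Between genes, 34.9% of peaks within 1 Mb of a window were kept (44 of 126), and 3.39% of those farther away were (56 of 1650). In pseudogenes the shares were 28.6% within 1 Mb (14 of 49) and 28.7% farther away (33 of 115). In protein-coding genes they were 6.85% within 1 Mb (10 of 146) and 3.37% farther away (90 of 2668). Of the arm peaks strong enough for the knockdown depth, 8 lay in pseudogenes, of which 2 were kept, so the pseudogene share rests mostly on weak peaks. Of the 3480 long non-coding RNA genes, 237 had a wild-type arm peak and 1 had a kept one (0.422% of the 237). Counted by gene in the same way, the share was 4.38% for protein-coding genes and 29.5% for pseudogenes.

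**Figure D2:**
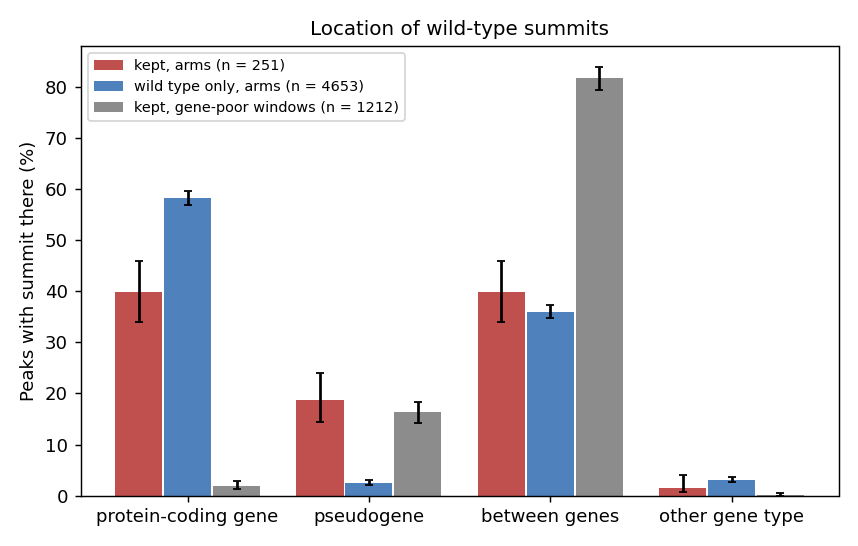
Percent of wild-type summits in protein-coding genes, in pseudogenes, between genes and in other gene types, for kept arm peaks, wild-type-only arm peaks and kept peaks of the gene-poor windows, with 95% Wilson intervals. Pseudogenes held 18.7% of kept and 2.51% of wild-type-only arm peaks, and 16.3% of kept peaks in the windows.

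The background below the summits also differed between kept and other arm peaks. It was at the lowest value of the list for 138 kept peaks (55%, 48.8 to 61.0) and for 978 wild-type-only arm peaks (21.0%, 19.9 to 22.2). It was more than 2 times that value at 12 kept peaks and at 7 wild-type-only arm peaks. Of all arm peaks, 12.4% of those at the lowest background were kept, 2.68% of those up to 2 times above it and 63.2% of the 19 beyond that. Within 1 Mb of a window the shares were close, with 19.7% kept at the lowest background (40 of 203) and 21.4% above it (28 of 131). At 1 Mb or more they were 10.7% (98 of 913) and 2.32% (85 of 3657). Between genes the contrast was largest, with 20.1% kept at the lowest background (64 of 318) and 2.47% above it (36 of 1458). In protein-coding genes 5.89% were kept at the lowest background and 2.83% above it. The part of this background in the kept calls was not tested.

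How much of a peak was kept varied over the whole range. Knockdown peaks covered 59.3% of the length of the kept peaks (87725 of 147920 bp), with a median of 86.6% per peak. Complete coverage was seen at 66 peaks, at least 90% at 117, and under 10% at 22. The summits of the wild-type peak and of the nearest knockdown peak were within 30 bp at 95 members (37.8%), 31 to 100 bp apart at 57 and over 100 bp apart at 99. Among members, 3 patterns stood out, and their limits of size were set after the values were seen. They were long wild-type domains with a short knockdown peak, runs of neighbouring kept peaks, and peaks with a high knockdown fold.

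**Figure D3:**
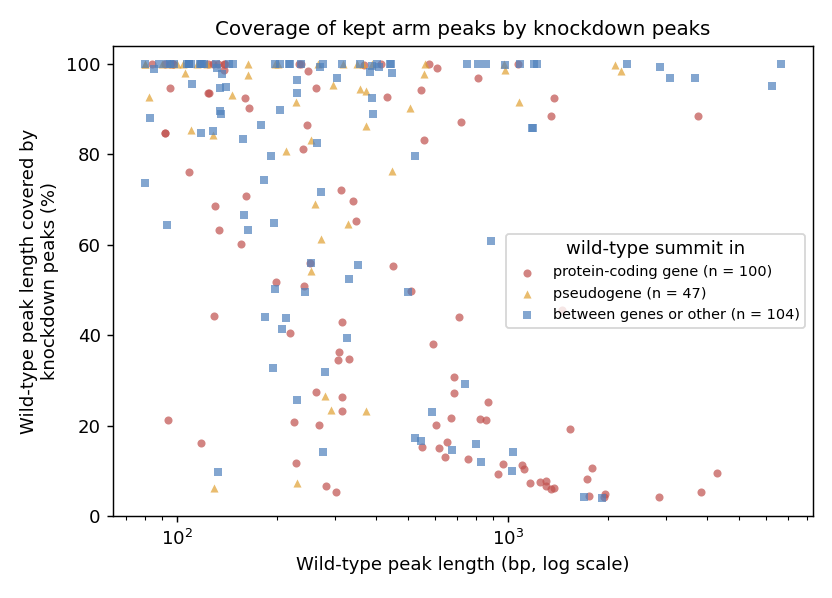
Percent of each kept wild-type peak that knockdown peaks cover, against the length of the wild-type peak in bp on a log scale, one point per kept arm peak, with symbols for the location of the summit. Of the 40 peaks of 1 kb or more, 16 were covered by less than 10% and 14 by at least 90%.

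Long wild-type domains with a short knockdown peak lay mostly over protein-coding genes. Of the 40 kept peaks of 1 kb or more, 16 were covered by less than 10%, and 13 of these had their summit in a protein-coding gene. Among all 40 the summit was in a protein-coding gene at 22, and among wild-type-only arm peaks of any length at 58.3%. With 16 peaks this difference was not tested. The location of the 427 wild-type-only arm peaks of 1 kb or longer is not given here. Whether the share is particular to the 16 or common to long wild-type peaks therefore cannot be told. Their wild-type peaks were 1027 to 4284 bp long, and the knockdown peak of highest fold on each was 72 to 204 bp long. Choosing long peaks with under 10% coverage favours short knockdown peaks, so this contrast in length follows largely from the choice. Knockdown folds ran from 3.78 to 11.8 and wild-type folds from 4.92 to 21.8. After scaling for depth, the pileup at the summit of the highest-fold knockdown peak was set against that at the wild-type summit. The ratio had a median of 0.584, and 2 of the 16 were above 1. These summits lay up to 1137 bp apart, so knockdown signal at the wild-type summit itself was not measured. All 16 would have passed at the knockdown depth on their wild-type values. Of the 16, 3 had their summit between genes. At the median, the highest-fold knockdown peaks on the 16 were 90.5 bp long with a fold of 4.66. The 2104 arm knockdown peaks that overlapped no kept peak were similar, at 113 bp and a fold of 4.16 by median. Short and weak knockdown peaks were thus common on the arms, and whether those on the 16 differ from them was not tested.

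AGAMOUS (AG), the MADS-box gene for stamen and carpel identity, was the longest of these domains. Its wild-type peak of 4284 bp (chromosome 4, 10383269 to 10387552) faced knockdown peaks of 218 and 190 bp, 408 bp in all. The knockdown folds were 4.23 and 5.21, and the wild-type fold was 14.7. The nearest knockdown summit was 17 bp from the wild-type summit, and the depth-scaled pileup of the stronger peak was 0.355 times that of the wild type. At APETALA1 (AP1), which specifies floral meristems and outer floral organs, a knockdown peak of 144 bp with a fold of 4.12 lay in a wild-type peak of 1732 bp with a fold of 12.9 (chromosome 1, 25985204 to 25986935). Its depth-scaled pileup was 0.293 times that of the wild type, and the summits were 215 bp apart.

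Of the genes on these 16 domains, AG and AP1 were on the regulator lists. Others, named after their values were seen except SRS7, ROS3 and AT3G06435, had the same form. SRS7, a member of the SHI family that acts in auxin-dependent organ growth, had 204 bp of knockdown peak at a fold of 4.02 in 3820 bp of wild-type peak at 18.8 (chromosome 1, 6837248 to 6841067). The homeodomain-leucine zipper gene HAT14 had 79 bp at 3.96 in 1761 bp at 8.36. MYB94, a regulator of cuticular wax, had 81 bp at 6.20 in 1350 bp at 10.2, and the zinc finger gene IDD5 had 123 bp at 4.25 in 2855 bp at 7.01. The highest wild-type fold of all members, 21.8, was in a peak of 1954 bp over AT3G06435, AT3G06436 and AT3G06437 (chromosome 3, 1969094 to 1971047), where the knockdown had 84 bp at a fold of 3.78. A peak across ROS3, a gene of active DNA demethylation, and the blue-light receptor gene PHOT2 had 103 bp at 11.8 in 1306 bp at 19.8 (chromosome 5, 23522685 to 23523990). The knockdown peak there lay on ROS3 and not on PHOT2.

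Of the genes on lists of developmental and chromatin regulators, 6 of the 100 with a wild-type arm peak carried a kept peak. They were AP1, AG, CLF, RAP2.7, ZAT6 and ZF1. This share of 6.0% stood near the 4.38% of all protein-coding genes with a wild-type arm peak (116 of 2650). Of all 27432 protein-coding genes 0.423% carried a kept arm peak, and 4.40% had a knockdown peak anywhere. The 4.38% kept among wild-type-bound genes was thus near the share of all protein-coding genes with any knockdown peak. The latter share needs no overlap with a wild-type peak. Of the lists, 4 had a kept member, with 2 of 14 wild-type-bound genes of floral identity, 2 of 4 AZF and ZAT genes, 1 of 3 Polycomb genes and the 1 bound gene of the AP2 group. No kept peak was found on the bound genes of the flowering time (8), shoot meristem and boundary (11), leaf polarity (11), WOX (5), root and stomata (10), embryo and seed (8), auxin (7), BPC (3) or TCP (15) lists. With wild-type peaks that would pass at the knockdown depth, 5 of 62 bound regulator genes were kept, and ZF1 was not among them. This was near the 8.12% kept among all arm peaks of this strength in protein-coding genes (50 of 616). The latter share is counted by peak and not by gene.

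CLF and RAP2.7 differed from AG and AP1 in form. CURLY LEAF (CLF), the histone methyltransferase of PRC2, had 3 wild-type peaks of 340, 165 and 139 bp between 9956064 and 9957204 on chromosome 2. Each was matched, by knockdown peaks of 237, 157 and 221 bp. The knockdown folds were 4.51, 5.02 and 5.19, and the wild-type folds 4.53, 3.80 and 4.56. Depth-scaled pileups in the knockdown were 1.02, 1.44 and 1.19 times those of the wild type. The middle peak would not have passed at the knockdown depth on its wild-type value, so a ratio above 1 was needed for it to be listed.

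RAP2.7 (TOE1), an AP2-type repressor of flowering and a target of miR172, was kept at high fold. Its body held 4 knockdown peaks with 1423 bp in all, against 4 wild-type peaks with 1530 bp, of which 3 were kept. The kept ones lay between 12226161 and 12228278 on chromosome 2. The best knockdown fold on each was 11.3, 13 and 11.4, and the wild-type folds were 11.1, 9.59 and 11.1. Depth-scaled, the knockdown pileups were 1.1, 1.43 and 1.00 times those of the wild type. The wild-type peak that was not matched was the weakest of the 4, with 107 bp and a fold of 4.30. RAP2.7 was the 1 gene of the regulator lists still kept when both lists were limited to a −log10 q of at least 20.

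The zinc finger genes ZAT6 and ZF1 (AZF1) belong to the C2H2 family from which telobox-binding factors come. At ZAT6 a knockdown peak of 226 bp with a fold of 3.33 lay in a wild-type peak of 595 bp with a fold of 3.43 (chromosome 5, 1216345 to 1216939). The background there was 13.4 in the knockdown and 30.5 in the wild type, well above the lowest values of the lists. At ZF1 a knockdown peak of 112 bp with a fold of 4.31 lay in a wild-type peak of 963 bp with a fold of 3.28 (chromosome 5, 26919062 to 26920024). With a summit distance of at most 100 bp as the rule, AP1, ZAT6 and ZF1 were no longer kept.

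**Figure D4:**
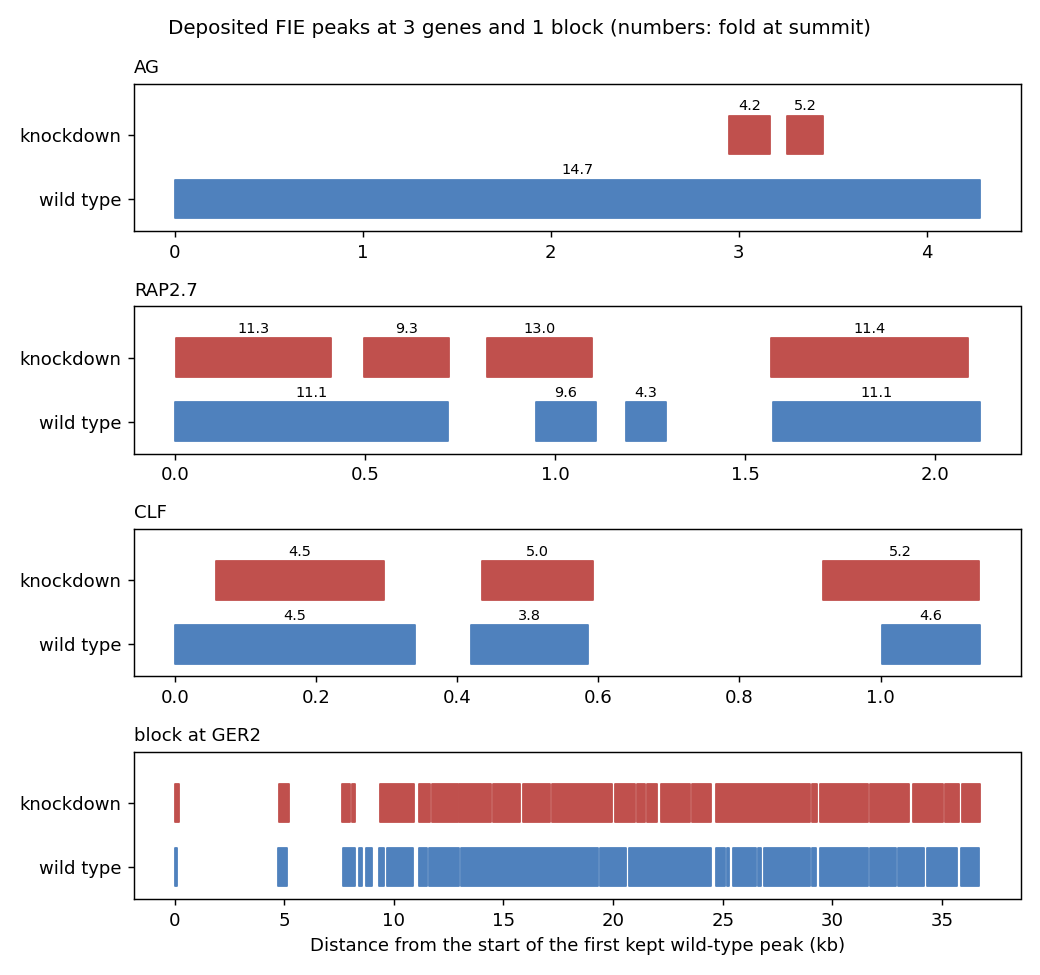
Deposited FIE peaks as bars, knockdown above wild type, at AG, RAP2.7, CLF and the block that ends near GER2, by distance in kb from the start of the first kept wild-type peak; numbers are fold enrichment at the summit. AG had 408 bp of knockdown peak in 4284 bp of wild-type peak, whereas in the block near GER2 knockdown peaks covered 93.9% of the kept peaks.

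Runs of neighbouring kept peaks, within 10 kb of each other, made up part of the kept length. The 3 runs with most members held 39 of the 251 peaks (15.5%), 21.2% of the length of all kept peaks and 33.2% of all overlapped bases. A tie of 3 runs of 8 peaks stood in the third place, of which the first in the genome was counted. The largest was a tract of 36.7 kb on chromosome 5 (15658117 to 15694797) with 21 kept peaks and 2 wild-type peaks without a match. The kept peaks filled 26270 bp of it, and knockdown peaks covered 93.9% of that peak length. It ran over 10 protein-coding genes and 2 pseudogenes from AT5G39110 to AT5G39200, among them GER2 (AT5G39190), a germin gene. Knockdown folds over the tract ran from 4.02 to 8.27 and wild-type folds from 3.25 to 5.60. The wild-type background was at the list's lowest value, 16.9, at all 21. Its longest kept peak (15671168 to 15677431) was 6264 bp long and overlapped 5965 bp of knockdown peak, with a knockdown fold of 8.16 and a wild-type fold of 5.47.

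A run of 10 kept peaks with 2624 bp in all lay within 7.18 kb of chromosome 1 (17137097 to 17144278) over AT1G45215, AT1G45221 and AT1G45223. Knockdown peaks covered 94.9% of this peak length. Another 8 kept peaks lay in 23.2 kb of chromosome 1 (8771612 to 8794787) over 2 protein-coding genes and 2 pseudogenes, together with 2 wild-type-only peaks. Knockdown peaks covered 78.1% of the 2506 bp of kept peaks in this run. The runs of 8 at the tip of chromosome 2 (33292 to 55336) and at 5565377 to 5578956 on the same chromosome held 6211 and 2946 bp of kept peaks, of which 97.5% and 97.9% were covered. At the tip the knockdown folds were 4.02 to 6.48 and the wild-type folds 2.97 to 5.46. In the other run the knockdown folds were 3.17 to 4.92 and the wild-type folds 2.25 to 3.48. That run lay over the pseudogenes AT2G13390 and AT2G13400 on a wild-type background of 22.7 to 59.1.

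A strong block between annotated genes lay just beyond the chromosome 2 window. Its 4 kept peaks (5198198 to 5205905) were 305 to 3669 bp long. The 2 longest, at 5198198 to 5201866 and 5201948 to 5204832, had knockdown folds of 20.7 and 20.8 and wild-type folds of 13.1 and 15.5. Knockdown peaks covered them to 96.8% and 99.4%. The depth-scaled pileup was 1.43 to 2.24 times that of the wild type over the 4 peaks. All 4 were at the lowest background of the wild-type list.

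The start of chromosome 2 holds ribosomal RNA genes, and the 3 kept peaks there were covered almost completely. The longest (998 to 7661) spans the rRNA genes AT2G01010 and AT2G01020 and faced 6662 bp of knockdown peak, the largest overlap of all members. The knockdown folds were 9.72, 10.2 and 10.2, and the wild-type folds 5.12, 5.90 and 5.12. The wild-type background was 134.7 to 155.5, where 155.5 was the highest among the members. The recovered wild-type pileup was 800 at each, a value that no wild-type arm peak exceeded. It was also the highest wild-type pileup of the kept peaks in the gene-poor windows. Whether 800 is an upper limit of the wild-type list was not tested, so the folds here do not measure a change. Of the other members, AT2G16586 and AT5G10340 had like values, with pileups of 799 and 800 on backgrounds of 154.9 and 111.7. Their knockdown folds were 9.42 and 12.5, and their wild-type folds 5.13 and 7.10. The 12 kept peaks with a background over 2 times the lowest lay on chromosomes 2 and 5, 7 of them between genes.

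Kept peaks in pseudogenes had low folds and mostly high coverage. Of the 47 peaks with their summit in a pseudogene, 32 were covered by at least 90%, and the lowest coverage was 6.20%, at AT5G54203. The median coverage was 97.6%, the knockdown fold was 3.63 to 8.27 (median 4.92) and the wild-type fold was 2.39 to 4.76 (median 3.16). Weak peaks were called from a higher fold in the knockdown list, so these medians do not measure a change. AT1G58140 carried 2 kept peaks, of 974 and 978 bp, the first covered completely and the other to 98.7%. AT1G48710 carried 4, of which 2 were covered completely, 1 to 64.7% and 1 to 7.39%. The 100 peaks in protein-coding genes had a median coverage of 47.7%, a knockdown fold of 3.33 to 20.3 (median 5.03) and a wild-type fold of 2.83 to 21.8 (median 4.02). Of the peaks in pseudogenes 2 reached the strength needed at the knockdown depth, against 50 of those in protein-coding genes.

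Peaks with a high knockdown fold formed the third pattern. A knockdown fold of 10 or more was seen at 40 members, among them the strong block, the RAP2.7 peaks and ROS3 described above, and at 28 of these the summits were within 30 bp. Their knockdown peaks were 91 to 2874 bp long (median 183.5) and their wild-type peaks 84 to 3669 bp (median 238.5). Of the 40, 21 lay between genes, 16 in protein-coding genes, 3 in other gene types and 0 in pseudogenes. The depth-scaled knockdown pileup exceeded that of the wild type at 38 of the 40. Among all members it did so at 77 of the 100 in protein-coding genes and 95 of the 100 between genes. It also did so at all 47 in pseudogenes and all 4 in other gene types, so this is not particular to the 40. The knockdown fold of 10 chose the 40, so their count is no test of a rise.

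The 3 highest knockdown folds were at sites between genes with almost the same summit in both lists. The first (chromosome 3, 11486156 to 11486298) had a knockdown fold of 36.3 and a wild-type fold of 20.3, with summits 1 bp apart. It was also the member closest to a gene-poor window, 13.8 kb outside it. The second (chromosome 2, 5099957 to 5100097) had 32.1 in the knockdown and 15 in the wild type. The third (chromosome 4, 5360813 to 5361142) had 27.4 in the knockdown and 15.3 in the wild type. Depth-scaled, the knockdown pileups were 1.90, 2.28 and 1.90 times those of the wild type. All 3 had the lowest background of both lists.

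The rest of the 10 highest knockdown folds, outside the strong block, were at 5 sites. At AT2G40990 the knockdown fold was 21.3 and the wild-type fold 8.25, with summits 56 bp apart. At AT3G48820 the knockdown fold was 19.9 and the wild-type fold 9.07, and at the non-coding RNA gene AT1G26558 the knockdown fold was 19.6 and the wild-type fold 4.82. A site between genes on chromosome 4 (5203700 to 5203895) had 19.5 in the knockdown and 4.65 in the wild type. The immune receptor gene LAZ5 had a knockdown fold of 20.3 and a wild-type fold of 9.02, with summits 17 bp apart. The genes named next were chosen after their values were seen. At GCN2, which encodes a protein kinase that acts on translation initiation, the knockdown fold was 16.3 and the wild-type fold 3.92, with summits 3 bp apart and 121 bp of knockdown peak. The ubiquitin ligase gene RMA3 had 13.2 in the knockdown and 4.74 in the wild type, and VPS60.2, of endosomal sorting, had 12.6 in the knockdown and 3.23 in the wild type. At SQN, a cyclophilin gene, the values were 15.5 in the knockdown and 5.64 in the wild type. MYB23, a trichome regulator, combined 125 bp of knockdown peak at 16.9 with a wild-type domain of 1103 bp at 12.2. All input replicates of the series were of wild-type plants, so these folds could not be set against knockdown chromatin without antibody.

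**Figure D5:**
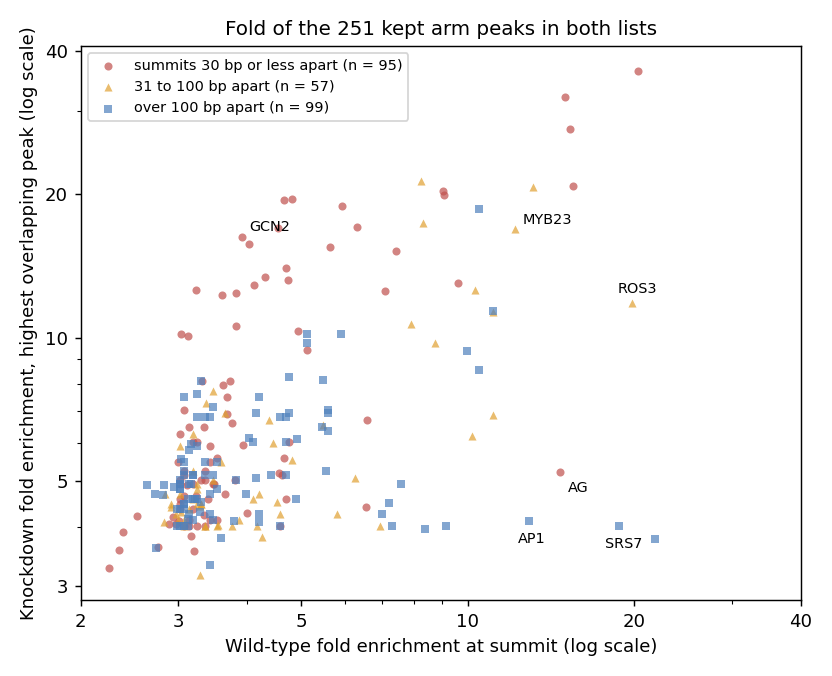
Knockdown fold of the highest overlapping peak against wild-type fold at the summit for the 251 kept arm peaks, both on log scales and as deposited, with symbols for the distance between summits. The 3 points above a knockdown fold of 25 have summits 0 to 2 bp apart, and AG, AP1 and SRS7 lie at wild-type folds of 12.9 to 18.8 with knockdown folds of 4.02 to 5.21.

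Across the members, the folds of both lists tracked each other more closely where the summits coincided. Spearman's rho between knockdown and wild-type fold was 0.678 over the 95 members with summits within 30 bp and 0.253 over the 99 with summits over 100 bp apart. This is a description over peaks that share their libraries and neighbours. The depth-scaled pileup was compared for the 88 members whose wild-type peak met the knockdown threshold after scaling. For the 31 of these with coincident summits the knockdown was a median of 1.90 times the wild type (0.355 to 4.48), and 28 were above 1. For the 35 with summits over 100 bp apart the median was 1.15 (0.190 to 1.90), and 19 were above 1. A member had to reach the knockdown list's threshold, so low ratios were removed by the choice of members.

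Of the 116 protein-coding genes with a kept arm peak, 110 had a knockdown peak on the gene body itself. Knockdown peaks made up less than 0.25 of the wild-type peak length on 43 of the 116 and at least as much on 29. Genes with a named regulator role among them included TRB2, a telobox-binding protein gene, with 441 bp of knockdown peak and 899 bp of wild-type peak. Its wild-type length came from 2 peaks, of which 1 was kept. The auxin response factor gene MP had 429 bp in the knockdown and 528 bp in the wild type, from 2 peaks in each list. Of its wild-type peaks 1 was kept, with 248 bp of overlap and summits 340 bp apart. The flowering repressor gene RAV2 had 116 bp in the knockdown and 1117 bp in the wild type. AT1G68670 had a kept domain of 1459 bp with folds of 8.54 in the knockdown and 10.5 in the wild type, covered to 45.5%.

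Values next to the limits of the rule were as follows. The smallest overlaps were 8 bp at AT5G54203, 13 bp at a site between genes on chromosome 4, 16 bp at GPAT6, 17 bp at AT1G48710 and 19 bp at AT2G36770. The closest peaks on the other side missed a knockdown peak by 3 to 20 bp, at a site between genes on chromosome 1 and at AT1G62270, AT5G24070, AT2G27240 and the pair AT3G04440 and AT3G04443. In all, 20 wild-type-only arm peaks were within 100 bp of a knockdown peak and 161 within 1000 bp, of 4653. The kept peak next inside a window lay 43.9 kb from its edge, with a knockdown fold of 4.16 and a wild-type fold of 3.02.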

How the data were processed

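Bowtie2, bedtools and the peak caller MACS2 (2.1.0.20151222) are named, with the build TAIR10 and without roles, per the submitters' processing notes. No source used here says how replicates and input were combined. The authors deposited 1 narrowPeak list per anti-FIE group, with a fold ratio and a −log10 p-value for each summit. The deposited score was read, by the narrowPeak convention of MACS2, as 10 times the −log10 of the q-value without decimals, and no peak fell below a −log10 q of 10. A site below this filter is missing from a list even if enriched.

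A whole-number pileup and a background were recovered from the deposited fold (pseudocount 1) and −log10 p under a Poisson model (largest misfit 7.27e-04), by a method tested on simulated data. A wild-type peak passed at the knockdown depth when both values, scaled by 0.471 and the pileup cut to a whole number, gave a −log10 p of at least 12.4. Depth-scaled pileups divide the knockdown pileup by 0.471. They take it at the summit of the highest-fold overlapping knockdown peak, and ratios set it against the pileup at the wild-type summit. Background counted as lowest within 0.5%. These scalings take recovered background to follow depth. Depth per library is unknown, and intervals cover counting alone.

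Peaks were placed against a RefSeq gene table of TAIR10.1, whose nuclear sequences were taken to equal TAIR10, with Python 3.11.15. It gives no strand or exons, so introns, exons and UTRs were not used. Of 178 regulator entries, 172 distinct genes were matched. Members, lists and limits of size were chosen with earlier results of these data known. The rule for named members took the 10 highest folds in either list, the 10 largest overlaps, the list genes, the peaks at the limits of overlap and the 3 largest runs. The 10 largest overlaps lay in the runs and blocks described and are not all given singly. Others were named after their values were seen. Motifs and sequences were not analysed here.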

Additional observations from a re-analysis of the deposited data

How the results depend on the processing

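No paired analysis was possible because each group had 1 peak list without replicate values. With summits within 100 bp as the rule, 152 peaks were kept (3.10%), with a median length of 245.5 bp, in 67 protein-coding and 3 regulator genes. At a −log10 q of at least 20 in both lists, 68 were kept, with a median fold of 5.47, a median length of 516.5 bp and 48.5% at the lowest background, in 37 protein-coding genes and 1 regulator gene. Restricted to wild-type peaks that pass at the knockdown depth, 88 were kept (8.96%), with a median fold of 5.60, a median length of 729.5 bp, 56.8% in protein-coding genes, 42.0% at the lowest background and 60 protein-coding genes. Windows widened by 0.5 Mb gave a share of 4.29%, with 46.3% in protein-coding genes. Without the 3 largest runs, an alternative chosen after seeing the data, the share was 4.36%. An overlap of at least 50% of the shorter peak kept 233, and peaks joined within 1 kb gave 196 domains (5.18%). Gene assignment by summit or with 1 kb added gave 96 and 169 protein-coding genes, and 6 regulator genes in both. These shifts follow from which peaks each rule admits. Depth limits weak sites: 163 kept peaks were below the strength expected to pass at the knockdown depth.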
